A study of Caenorhabditis elegans with 2 samples.

Results

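Strong intronic peaks away from promoters are 663 of the 3000 strongest peaks, by listed signal, that were called on pooled data of a CEH-13 ChIP-seq experiment (22.1%, 95% interval 20.7 to 23.6), and 663 of 30000 peaks listed in all. A peak was a member when its summit lay inside a protein-coding gene, in no protein-coding exon, more than 500 bp from any tRNA, snoRNA or snRNA gene, and farther upstream than 1000 bp, or farther downstream than 500 bp, from every protein-coding gene's 5′ end. The other strong peaks were 1005 at promoters, 439 near such small RNA genes, 393 in exons and 500 in intergenic sequence. The pooled signal chose the members, so "strong" states a rank and no test was made on it. All values are descriptions of these lists, and a 95% interval beside a share (Wilson) reflects only how many peaks were counted.

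The experiment was chromatin immunoprecipitation and sequencing (ChIP-seq) with an anti-GFP antibody on whole early Caenorhabditis elegans embryos, 2 hours old, released from mothers by bleaching. The single group had 2 biological replicates of strain OP756, with males and females pooled. Both replicates carry the mutant allele unc-119(tm4063) and the transgene wgIs756, which holds ceh-13::TY1::EGFP::3xFLAG together with the rescuing gene unc-119(+). The labels name no mutation of the native ceh-13 gene. The lists hold positions, a signal score of unstated scale and a q-value per peak and give no counts of reads, which leaves the sequencing depth unknown. Embryos without the tag were not analysed here. A whole-embryo peak does not say in which cells, or in how many, the tagged protein was bound.

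CEH-13 belongs to the labial group of Hox proteins, homeodomain transcription factors that pattern the body axis and can bind DNA together with PBC partners such as CEH-20. Introns of C. elegans genes are mostly short, but long ones, often near the start of a gene, can hold enhancers, promoters of shorter transcripts, and whole genes for small RNAs. Genes read by RNA polymerase III, such as those for tRNAs and for the RNAs of RNase P and of the signal recognition particle, carry their own promoters, and the B box is the element inside tRNA genes that the factor TFIIIC binds.

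The windows shown are those of the 5 highest-ranked loci outside 1 chromosome whose sequence is not shown, chosen to show what lies under the strongest signals, followed by the highest-ranked further members with a tRNA gene B box, the 6-mer CCGCAC and a GAGA repeat. Each runs 5′ to 3′ along the plus strand of WBcel235 (ce11), from 100 bases before to 100 bases after the summit, and was read from the RefSeq genome sequence. The first lies in intron 2 of klp-6 (chrIII:5031426-5031626), and its capitals mark srpr-2.2, an RNA gene of the signal recognition particle on the minus strand that fills the whole window. The capitals in the window in intron 5 of unc-104 (chrII:7001551-7001751) mark C52E12.t1, a 72-base tRNA pseudogene. No capitals stand in the window in intron 8 of usp-39 (chrII:2570484-2570684), which has none of the 3 motifs marked elsewhere. In the others the capitals mark matches on either strand to the B box (GTTC followed by a purine, an A, 2 unspecified bases and a C), CCGCAC or GAGAGA: intron 2 of srt-52 (chrV:53356-53556), intron 1 of Y39A1C.1 (chrIII:10856924-10857124), intron 2 of Y57G11C.22 (chrIV:14838235-14838435), intron 6 of F41H10.3 (chrIV:5371030-5371230) and intron 5 of Y45G5AM.9 (chrV:4181903-4182103).
klp-6: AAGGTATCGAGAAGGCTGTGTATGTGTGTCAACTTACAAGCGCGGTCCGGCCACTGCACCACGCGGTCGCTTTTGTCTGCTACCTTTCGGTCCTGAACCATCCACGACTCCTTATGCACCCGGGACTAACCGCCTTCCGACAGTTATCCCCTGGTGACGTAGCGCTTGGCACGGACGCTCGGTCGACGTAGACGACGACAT
unc-104: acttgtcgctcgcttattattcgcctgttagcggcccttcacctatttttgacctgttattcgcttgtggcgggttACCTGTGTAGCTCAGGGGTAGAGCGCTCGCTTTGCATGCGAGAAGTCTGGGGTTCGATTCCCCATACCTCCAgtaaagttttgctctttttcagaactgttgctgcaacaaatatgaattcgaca
usp-39: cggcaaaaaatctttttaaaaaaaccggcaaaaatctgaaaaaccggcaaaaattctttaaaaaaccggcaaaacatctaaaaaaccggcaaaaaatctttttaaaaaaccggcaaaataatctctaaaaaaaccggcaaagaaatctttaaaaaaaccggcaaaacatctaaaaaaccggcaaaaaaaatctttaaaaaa
srt-52: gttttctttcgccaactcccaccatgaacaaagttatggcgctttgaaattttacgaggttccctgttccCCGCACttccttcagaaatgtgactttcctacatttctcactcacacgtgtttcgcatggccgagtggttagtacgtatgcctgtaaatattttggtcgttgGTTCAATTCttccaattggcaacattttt
Y39A1C.1: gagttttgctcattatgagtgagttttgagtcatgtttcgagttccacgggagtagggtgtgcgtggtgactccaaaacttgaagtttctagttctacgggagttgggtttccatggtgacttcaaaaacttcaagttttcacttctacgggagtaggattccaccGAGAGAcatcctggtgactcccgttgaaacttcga
Y57G11C.22: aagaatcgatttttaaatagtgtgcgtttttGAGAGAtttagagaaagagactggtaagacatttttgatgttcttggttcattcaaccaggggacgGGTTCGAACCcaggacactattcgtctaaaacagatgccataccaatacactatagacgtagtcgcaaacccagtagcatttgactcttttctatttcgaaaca
F41H10.3: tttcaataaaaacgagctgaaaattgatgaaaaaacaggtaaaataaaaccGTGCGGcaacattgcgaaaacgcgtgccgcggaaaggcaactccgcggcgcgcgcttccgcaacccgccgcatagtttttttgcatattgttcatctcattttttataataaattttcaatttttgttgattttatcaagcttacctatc
Y45G5AM.9: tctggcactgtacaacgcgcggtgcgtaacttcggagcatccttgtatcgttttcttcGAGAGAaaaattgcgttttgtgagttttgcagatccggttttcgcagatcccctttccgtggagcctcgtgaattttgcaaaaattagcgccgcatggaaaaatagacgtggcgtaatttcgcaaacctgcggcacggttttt

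The signal of the members ran from 50.5 to 272 with a median of 56.7, against medians of 61 for strong promoter peaks, 57.7 for intergenic, 56.5 for exon and 110 for small RNA gene peaks. Most members stood low among the 3000: the median rank was 1846, and 32 were among the first 500. The last members, C17H11.6, lrch-1 and myo-6, had signals of 50.47, 50.47 and 50.46, and the first intronic peaks outside, in dgat-2, sdpn-1 and Y116A8C.9, had 50.41, 50.4 and 50.39. Nothing in the signal separates the members from the peaks just outside. A q-value under 0.05 was listed for 167 of the 663 members (95% interval 22% to 28.6%), where 38.2% of all 3000 strong peaks and 3.82% of all 30000 listed peaks had one. The authors' list of peaks that passed their irreproducible discovery rate (IDR) step held 34 members (5.13%), against 17.1% of the 3000. All 1146 peaks with such a q-value stood among the 3000 strongest, so this measure is not independent of the rule. Of strong peaks at small RNA genes 79.7% had such a q-value, against 41% at promoters, 28.2% (24.4 to 32.3) in intergenic sequence and 19.3% in exons.

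A member was called strong in a replicate when a summit among the 3000 strongest peaks of that replicate's own list lay within 150 bp of its summit. A summit of a replicate could match more than 1 pooled peak of a locus, as it did in klp-6, gei-4 and ints-8. The replicate signal and rank given for a member are those of the highest-ranked listed summit within 150 bp. By this measure 367 members (55.4%) were strong in replicate 1 and 246 (37.1%) in replicate 2, against 61.7% and 47.6% of all 3000 pooled peaks. In both replicates 107 members were strong (16.1%, interval 13.5 to 19.1), against 27.8% of the 3000. For the other classes that share was 29.7% at promoters, 16.6% in intergenic sequence, 11.5% in exons and 68.8% near small RNA genes. Replicate 1 alone held 260 members among its strongest, replicate 2 alone 139, and neither 157 (23.7%). Over the full lists of 30000 peaks each, 529 members (79.8%) had a listed summit within 150 bp in both replicates. Since both replicates went into the pooled list, these shares are no independent check of the members.

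The share strong in both replicates followed the rank. Of the 11 members ranked 1 to 250, 10 were strong in both, as were 17 of 21 at ranks 251 to 500. From there to rank 1000 it was 49 of 97 members (50.5%, interval 40.7 to 60.3), against 51% for promoter, 47.8% for intergenic and 52% for exon peaks of the same ranks. In the next 500 ranks it was 21.4% (14.8 to 29.9), against 16.9%, 10.5% and 13.9% for the same classes. Of the 291 members past rank 2000, 2 were strong in both (0.687%, interval 0.189 to 2.47), against 1.66% of promoter peaks. In these bins the intervals of the intronic peaks overlapped those of the other classes.

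**Figure D1:**
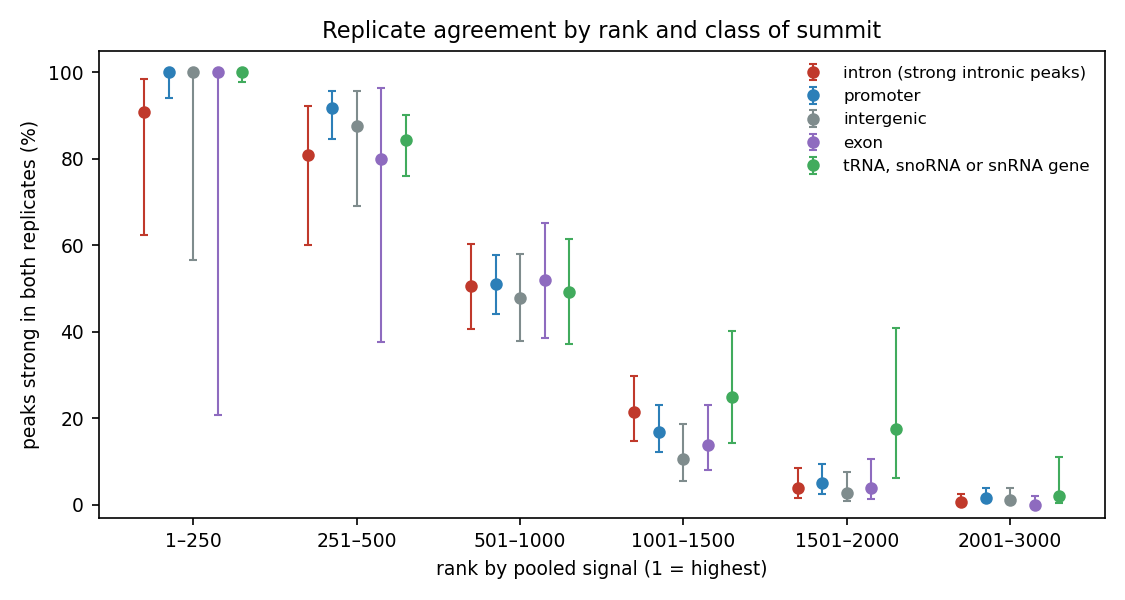
Share of the strong peaks that were strong in both replicates (y axis, percent, Wilson 95% intervals as bars) by rank of pooled signal (x axis), for each class of summit. Intronic peaks fall from 90.9% of 11 at ranks 1 to 250 to 0.687% of the 291 past rank 2000, beside the other classes.

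The members strong in both replicates had a median signal of 75.3 (51.7 to 272), and 87 of the 107 had a q-value under 0.05. Among the 260 strong in replicate 1 only the median was 56.9 and 51 had such a q-value. Among the 139 strong in replicate 2 only it was 56.8, with 28, and among the 157 strong in neither it was 53.4, with 1. The groups overlap in signal. Mean GC content of the windows was 44.8% in those strong in both, 43.2% in replicate 1 only, 43.7% in replicate 2 only and 42.5% in neither, each with an SD between 7.76 and 8.91. Over 50% of the bases were soft-masked as repeats in the RefSeq sequence in 21.5% of the windows strong in both, 29.6% of those in replicate 1 only, 31.7% in replicate 2 only and 33.8% in neither.

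**Figure D2:**
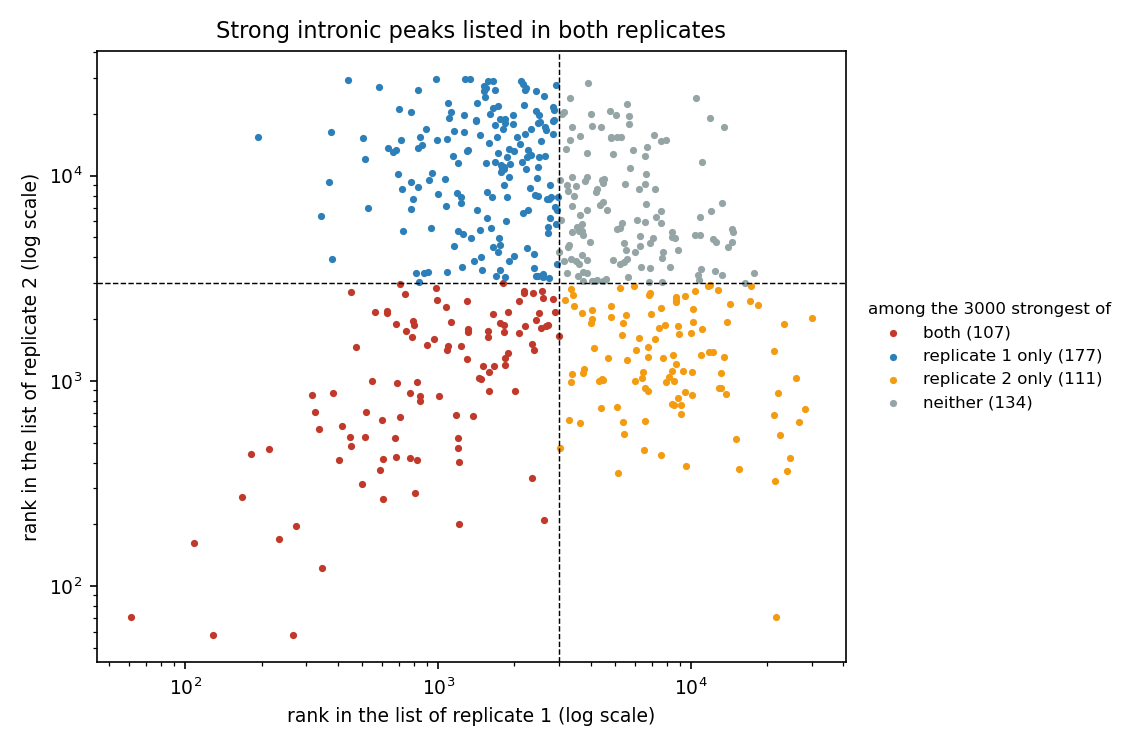
Each point is 1 of the 529 strong intronic peaks with a listed summit within 150 bp in both replicates, by its rank in the list of replicate 1 (x axis) and replicate 2 (y axis), both on log scales. Dashed lines mark rank 3000; the 107 points below and left of both lines are the members strong in both.

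The strongest members lay on structural RNA genes inside introns, which the annotation types as other noncoding RNA or pseudogene and which the rule therefore kept. The strongest of all had its summit in rpr-1, the RNase P RNA gene, in intron 5 of ints-8, which encodes a subunit of the Integrator complex (rank 61, pooled signal 272). Its signal was 165 in replicate 1 and 106 in replicate 2, ranks 61 and 71 of those lists. The next pair lay side by side in intron 2 of klp-6, which encodes a kinesin of ciliated neurons. Its stronger peak, in srpr-2.2 (WBGene00195017), ranked 96 with a pooled signal of 231 and had signals of 120 in replicate 1 and 111 in replicate 2. The other, with a pooled signal of 210, had its summit in the noncoding gene R144.16, which overlaps srpr-2.2. Its highest-ranked summit within 150 bp in replicate 2 was the same one, so the pair shares 1 summit there. A second SRP RNA gene, srpr-1.2 in intron 7 of the choline kinase gene ckb-2, ranked 396, with signals of 57.9 in replicate 1 and 41.3 in replicate 2. All 4 of these peaks were strong in both replicates.

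The peak in intron 5 of unc-104, the gene of a kinesin that carries synaptic vesicle precursors, ranked 113. Its signals were 130 in replicate 1 and 72.7 in replicate 2, and its summit fell inside the tRNA pseudogene C52E12.t1 shown above. That window matched the tRNA gene B0491.t1 at 98.5% identity over 68 bases, and it holds a B box match. Of the 663 windows, 6 matched an annotated tRNA gene at 80% identity or more over at least 30 bases (0.905%, interval 0.415 to 1.96), against 19 of 7514 weak intronic peaks (0.253%) and 183 of 107801 intronic tiles (0.17%). Weak intronic peaks are the listed peaks below rank 3000 that meet the same position rule. Tiles are the adjacent whole windows of the same length that fit into the intronic sequence that could hold a member. Stretches shorter than a window, and the ends left over, have no tile. The other 5, in W05B2.2, nep-2, Y43F8B.2, cyp-42A1 and chin-1, ranked between 1173 and 2699 at 80% to 82.7% identity, and none of them was strong in both replicates.

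In all, 45 members (6.79%, interval 5.11 to 8.96) had their summit inside an annotated noncoding gene or pseudogene, against 2.75% of the weak intronic peaks and 2.32% of the tiles. They made up 7 of the 32 members ranked 1 to 500 (21.9%). Their signals ran from 50.5 to 272 with a median of 59.8, beside a median of 56.6 for the 618 others, and 13 of the 45 were strong in both replicates (28.9%, interval 17.7 to 43.4), beside 15.2%. Their windows had a mean GC content of 50.3% ± 6.82 (SD, n = 45 peaks), beside 42.9% ± 8.25 for the others. The 40 in genes typed ncRNA included rpr-1, the SRP RNA genes, and lfor-1 and lfor-2 in introns of sre-13 and atgp-2 (ranks 549 and 1335). Of microRNA genes, mir-124 in intron 5 of trpa-1 ranked 842 and mir-36 in intron 2 of Y62F5A.9 ranked 1508, and the mir-36 peak alone was strong in both replicates. No member lay in a piRNA or rRNA gene (0 of 663, which allows a share of up to 0.452%, taken as 3 counts of 663 and not as a Wilson bound). Of the tiles 0.26% lay in a piRNA gene, and of the weak intronic peaks 0.0266%. No tile and no weak intronic peak lay in an rRNA gene, so these absences say little about the members.

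Most other leading members had no annotated noncoding gene under the summit, and the first 4 of them differed in how they stood in the replicates. The peak in intron 8 of usp-39 (rank 185, pooled signal 156) was listed in replicate 2 at a signal of 42.8 and rank 441, and replicate 1 had no listed summit within 150 bp. A weaker member of the same locus, rank 592 at a pooled signal of 80.9, was listed in replicate 1 instead, at a signal of 96.3 and rank 180, and had no listed summit in replicate 2. The window of the rank 185 peak was 98% soft-masked, had a GC content of 28.9% and repeated the run aaaaaccgg 8 times, as the sequence above shows. The peak in intron 5 of W05H12.1 (rank 194) had signals of 82.9 in replicate 1 and 71.1 in replicate 2, and that in intron 2 of srt-52, a gene of the serpentine receptor family, 102 in replicate 1 and 52.8 in replicate 2 (rank 197). The peak in intron 1 of Y39A1C.1 (rank 202) had 67.3 in replicate 1 and 82.5 in replicate 2. Its summit lay between 1000 bp upstream and 500 bp downstream of an annotated protein-coding transcript start that is not its gene's 5′ end.

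The peak in the last intron of hmt-1, the gene of a heavy metal tolerance transporter, ranked 216, with signals of 76.1 in replicate 1 and 64.5 in replicate 2. A second peak in the same gene ranked 611 and was also strong in both. Intron 2 of Y57G11C.22, 9612 bp long, held the peak of rank 218, at 95.7 in replicate 1 and 42.9 in replicate 2, and its window above holds a B box match. The last intron of mom-1, needed for secretion of Wnt ligands, held the peak of rank 248, at 87.3 in replicate 1 and 41.9 in replicate 2. All 4 of these peaks were strong in both replicates. The peak in Y45G5AM.9 (rank 328) was not, with a signal of 73.1 in replicate 1 and no listed summit in replicate 2.

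Another 12 of the 25 strongest loci stood at ranks 306 to 441: F41H10.3, scc-2 (the cohesin loader), eif-3.I (a translation initiation factor subunit), sfa-1 (splicing factor 1), num-1 (the Numb homologue), gei-4, ppfr-1 (a regulatory subunit of protein phosphatase 4), mdt-26 (a Mediator subunit), madd-2 (a TRIM protein of axon and muscle arm guidance), K04G2.7, let-526 (a SWI/SNF subunit) and F31E9.3. Their pooled signals ran from 118 in F41H10.3 to 94.6 in F31E9.3, and each was strong in both replicates. In scc-2 the order of the replicates was turned, with a signal of 41.1 in replicate 1 and 63.8 in replicate 2. The ppfr-1 window matched 358 places in the genome, itself included, at 90% identity or more over at least 100 bases, and its summit also lay in the antisense RNA gene anr-20. The let-526 summit lay in an antisense RNA gene as well.

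Copies of this kind were found for 69 members (10.4%, interval 8.31 to 13), against 12.2% of weak intronic peaks, and more than 10 copies for 20 members (3.02%), against 4.91%. Of the 69, 8 were strong in both replicates (11.6%), against 99 of the 594 others (16.7%). Soft-masked bases took up over 50% of the window in 197 members (29.7%, interval 26.4 to 33.3), against 40.5% of weak intronic peaks and 52% of tiles. The strongest repeat-rich member was the usp-39 peak, and 23 of the 197 were strong in both replicates (11.7%), against 84 of the 466 others (18%).

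The introns that held members had a median length of 1384 bp (interval of the median 1253 to 1598, 659 placed peaks), against 1065 bp for weak intronic peaks and 1414 bp for tiles. All 103163 introns of the longest coding transcripts had a median of 63 bp, so members lay in long introns, as did the tiles. Introns over 5000 bp held 143 members (21.7%, interval 18.7 to 25), against 16.7% of the weak intronic peaks and 18.8% of the tiles. The members strong in both replicates lay in introns of a median 1286 bp, against 1420 bp for the other members. The median distance to the nearest exon was 382 bp for members, against 250 bp for weak intronic peaks and 306 bp for tiles.

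Within the gene, 137 of 659 placed members lay in the first intron (20.8%, interval 17.9 to 24.1), against 19.3% of the weak intronic peaks and 21.6% of the tiles. The share in tiles lay within the interval of the members. First-intron members had a median signal of 57.8 and 27 were strong in both replicates (19.7%), against 56.5 and 15.1% in later introns. The start of another annotated transcript of a protein-coding gene, with the same distances as for promoters, held 122 members (18.4%, interval 15.6 to 21.5), against 15.1% of weak intronic peaks and 13.8% of tiles. Of the 107 members strong in both replicates 16 lay at such a start (15%), against 19.1% of the 556 others. Members at inside starts had a median signal of 56.8, against 56.7 for the rest.

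The 663 members fell into 640 loci, taking summits within 300 bp as 1, and into 540 host genes, 3.37% of the 16015 genes with intronic sequence that could hold one. Hosts with 1 locus numbered 464, and 76 had 2 or more. hmr-1, the classical cadherin gene, had 6 loci in 46.5 kb of such sequence, with signals of 51.7 to 65.7, none strong in both replicates; replicate 1 listed all 6, at 27.6 to 44.2, and replicate 2 listed 5, at 15.8 to 30.2. mbk-2, the gene of a DYRK-family kinase of the oocyte-to-embryo transition, had 5, and 4 of them lay within 2818 bp of intron 6. The strongest of these (rank 861) had signals of 42.3 in replicate 1 and 31.1 in replicate 2 and was the only one of the gene strong in both.

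T28B11.1 had 4 loci, all within 4276 bp of its first intron of 17091 bp. The strongest peaks there, of ranks 518 and 559, had signals of 51.3 and 48.1 in replicate 1 and of 38 and 37.6 in replicate 2, and both were strong in both replicates, while the other 3 peaks of the gene had their summits in annotated noncoding genes. Y111B2A.12 also had 4 loci, with signals of 53.2 to 65 and none strong in both. In all, 27 of the 601 introns with a member held 2 or more loci.

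How often a gene hosted a member followed how much intronic sequence it had. Of the 419 genes with over 10000 bp of it, 132 were hosts (31.5%), against 17 of the 6516 genes with up to 500 bp (0.261%). Per Mb of that sequence there were 30.9 members in the first set and 12.2 in the second, with values between 15.7 and 26.8 in the 4 sets in between. GC content was not held equal between these sets.

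**Figure D3:**
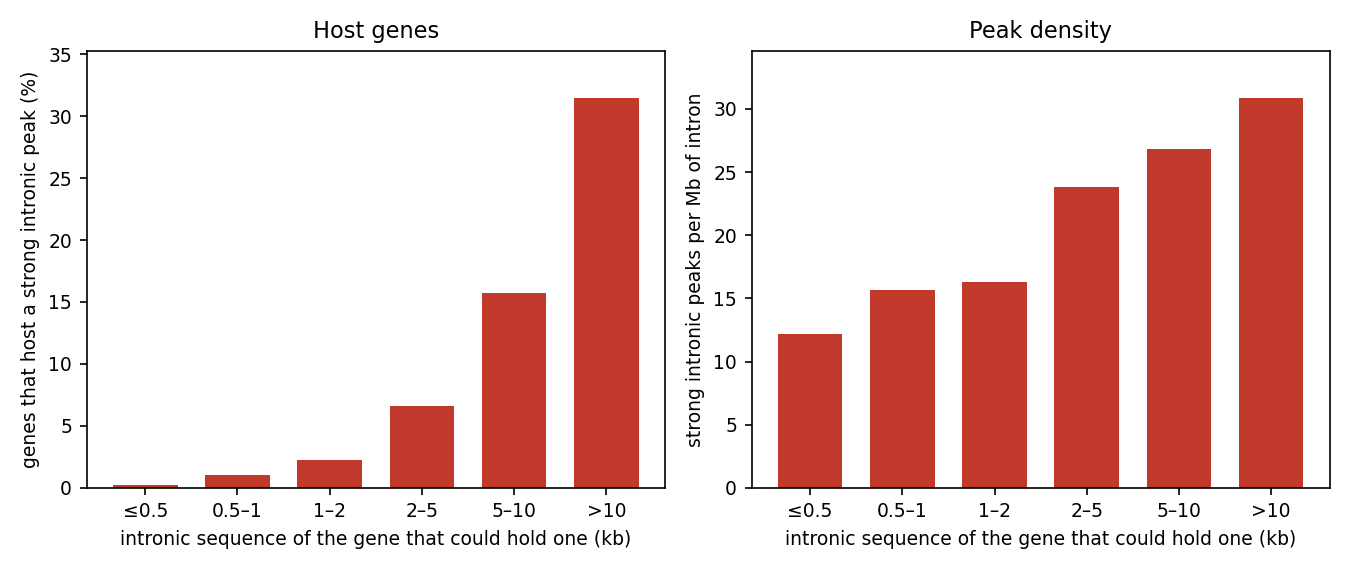
Genes grouped by the intronic sequence that could hold a strong intronic peak (x axis, kb): the left bars give the percentage that host one and the right bars the number of such peaks per Mb of that sequence. Both rise along the axis, to 31.5% and 30.9 per Mb above 10 kb.

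Gene lists of developmental, neuronal and cellular functions were counted against the same 3.37% of genes and 23.9 members per Mb. Together the 15 lists held 109 hosts among 1306 genes with eligible introns (8.35%) and 147 members, 32.4 per Mb, with a median signal of 56.9. The lists have 16.4% of the eligible sequence and 22.2% of the members. Of the 147, 21 were strong in both replicates, where 16.1% of all members were. Lists with few members have imprecise densities, and no list was tested.

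Axon guidance and cell adhesion genes had the most, 38 members in 24 of 93 genes (25.8%), 56 per Mb. These genes have long introns, with 679 kb or 2.45% of the eligible sequence, and they held 5.73% of the members. The leading hosts were mig-10, a lamellipodin homologue (77.1; 39.4 in replicate 1 and 33.3 in replicate 2, strong in both), sax-7, the L1CAM homologue (72.5, listed in replicate 2 only, at 44.1), and igcm-4 (70.8; 32.1 in replicate 1 and 27.2 in replicate 2). Of the 38, 3 were strong in both replicates, where 107 of all 663 members were. Wnt and beta-catenin genes had 8 members in 4 of 32 genes, 74.4 per Mb. They were mom-1, cam-1, a ROR-type Wnt receptor (81.1; 50.5 in replicate 1 and 28.4 in replicate 2), lit-1, the Nemo-like kinase (79.2; 54 in replicate 1 and 21.6 in replicate 2), and lin-17, a Frizzled receptor (63; 34.9 in replicate 1 and 26 in replicate 2). Notch pathway hosts were sel-8, the Mastermind-like coactivator (76.2), lag-1, the CSL transcription factor (57.9), and dsl-3, a ligand gene (50.7), none strong in both replicates.

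The Hox list had 1 host of 6 genes, lin-39, whose first intron held a peak of rank 1885 with a signal of 56.5, and of 45.5 in replicate 1 and 17.6 in replicate 2. No member lay in the 6 Hox cofactor genes of the TALE class (0 of 663 members, which by the same rule of 3 counts allows a share of up to 0.452%, where these genes have 0.0675% of the eligible sequence). ceh-13 itself hosted none: its gene body held 2 listed peaks, the stronger in an exon (rank 658, signal 77.8) and the other in an intron at rank 20857. The transgene carries ceh-13 sequence too, and its copies and the native gene cannot be told apart in these lists. Other homeobox genes had 6 members in 5 of 88 genes, 25.7 per Mb, led by zfh-2 (62.6), zag-1, a ZEB-type factor of neurons (58.8), and ceh-21 (58), of which the first and second were strong in both replicates.

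Nuclear hormone receptor genes had 9 members in 7 of 267 genes, 22.2 per Mb. sex-1, a receptor of X chromosome counting, led with 92.4, at 49 in replicate 1 and 43.3 in replicate 2, followed by nhr-65 (61.2) and nhr-25 (60.9), which were strong in replicate 2 only. The list of other transcription factors had 22 members in 17 of 128 genes (13.3%), 50.1 per Mb, led by crh-1, the CREB homologue (79.5), zip-1 (75.3) and atf-7 (69). Of these zip-1 was strong in both replicates, at 38.4 in replicate 1 and 34.7 in replicate 2, and the others in replicate 1 only. Chromatin genes had 10 members in 9 host genes, 30.6 per Mb, led by mdt-26 (99), nurf-1 of the NURF remodelling complex (86.2) and zfp-1, the AF10 homologue (83.2), all strong in both replicates.

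RNA binding genes had 7 members in 6 of 64 genes, 40.1 per Mb, led by sfa-1 (107), gld-2, a cytoplasmic poly(A) polymerase (83), and larp-1 (80.3), also strong in both replicates. Cell cycle genes had the highest density, 86.3 per Mb, from 9 members in 6 of 63 genes, led by cdc-25.2 (59.8), the cyclin D gene cyd-1 (59.6) and zyg-8 (59.4), and none was strong in both. Muscle genes had 6 members (25.5 per Mb), led by the dystrophin gene dys-1 (66.7), lim-9 (62.8) and dim-1 (60.9), again none strong in both. Signalling kinases and phosphatases had 10 members (21.7 per Mb), led by the insulin receptor gene daf-2 (62.5), sos-1 (58.6) and max-2 (55.9). Synapse genes had 9 (26.8 per Mb), led by unc-104, unc-14 (64.4) and mpz-1 (59.2). Ion channel genes had the lowest density above 0, 12 members in 990 kb (12.1 per Mb), led by the BK channel gene slo-1 (88.2; 53.4 in replicate 1 and 33.7 in replicate 2), kvs-5 (71.3) and trpa-1 (71.1).

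**Figure D4:**
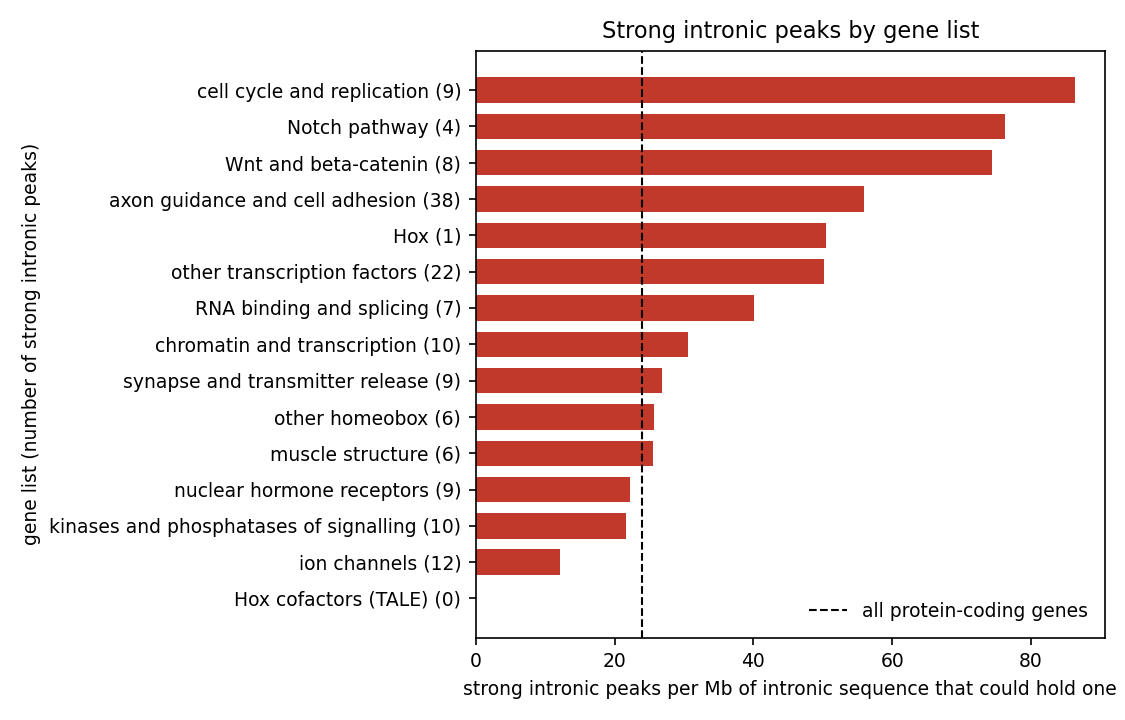
Strong intronic peaks per Mb of intronic sequence that could hold one (x axis) for each gene list (rows, with the number of such peaks). The dashed line marks 23.9 per Mb over all protein-coding genes; the axon guidance and cell adhesion list has the most peaks, 38. The length of intronic sequence per gene was not held equal between lists.

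The windows of the members were richer in GC than the tiles. Their mean GC content was 43.4% ± 8.37 (SD, n = 663 peaks), against 38.1% ± 7.74 for the weak intronic peaks and 32.8% ± 7.51 for the tiles. Strong peaks of other classes had means of 43% at promoters, 44.5% in intergenic sequence and 47.9% in exons. Among members the mean was 46.2% at ranks 1 to 500 and 42% at ranks 2501 to 3000, and among weak intronic peaks it was 41.1% up to rank 6000 and 36.8% beyond rank 20000. GC content thus declined along the whole list. The part of GC content in the signal was not tested.

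Several motifs had different shares in these windows of members, weak intronic peaks and tiles, counted on both strands. Matches overlap between motifs, as CCGCAC and CGCACA share bases. Both of these sequences were taken from earlier results of these data, so their shares are no independent finding. The GAGA repeat GAGAGA was in 17.5% of member windows, against 11.5% of weak and 8.45% of tile windows, the GC box GGGCGG in 11%, against 6.16% of weak and 3.47% of tile windows, and CCGCAC in 7.39%, against 4.3% of weak and 2.85% of tile windows. Strong peaks of other classes had GAGAGA in 21% at promoters, 28% in intergenic sequence and 13% in exons. In the same order GGGCGG was in 13.7%, 12.2% and 8.14%, and CCGCAC in 12.3%, 9.2% and 4.58%. These shares were thus higher in promoter and intergenic peaks than in members, and lower in exon peaks. The other classes were not split by GC content. The Hox and PBC composite site TGATNNAT was in 7.99% of member windows, against 10.7% of weak and 13% of tile windows, the homeodomain core TAATTR (R is A or G) in 13.1%, against 20% of weak and 23.8% of tile windows, and TATAAA in 10.4%, against 17.2% of weak and 23.3% of tile windows. The B box was in 4.37%, against 4.46% of weak and 3.67% of tile windows. CGCACA was in 9.5%, against 6.12% of weak and 4.62% of tile windows, and in 15.5% of strong promoter, 13.6% of intergenic and 2.8% of exon peaks. The GATA site WGATAR (W is A or T) was in 23.7%, against 26.7% of weak and 32.6% of tile windows, and the TCF site CTTTGW in 16.6%, against 18.7% of weak and 22.3% of tile windows. The E2F site TTCCCGC was in 5.73%, against 4.37% of weak and 3.29% of tile windows, and the forkhead site TGTTTRC in 6.64%, against 6.02% of weak and 5.52% of tile windows. The E box CANNTG was in 46.8%, against 47.2% of weak and 42.5% of tile windows.

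These orders run with GC content, and within windows of 40% to under 50% GC most were smaller. There the composite site was in 10.2% of 294 member windows (interval 7.24 to 14.2), against 9.77% of weak and 9.46% of tile windows. TATAAA was in 8.5%, against 9.26% of weak and 9.47% of tile windows, CCGCAC in 7.82% (5.27 to 11.5), against 5.51% of weak and 6.04% of tile windows, and GGGCGG in 11.2% (8.1 to 15.3), against 8.27% of weak and 8.16% of tile windows. GAGAGA was in 21.1% (16.8 to 26.1), against 16.5% of weak and 16.9% of tile windows. TAATTR was in 9.86% (6.96 to 13.8), against 15.5% of weak and 14.4% of tile windows, and WGATAR in 20.4%, against 25.5% of weak and 26.6% of tile windows. Of the 13 motifs counted, these 2 had a member interval that left out the tile share. At 30% to under 40% GC neither did: TAATTR stood at 22.9% of 192 member windows (17.5 to 29.4), against 22.5% of weak and 21.9% of tile windows, and WGATAR at 28.6% (22.7 to 35.4), against 28.1% of weak and 33.3% of tile windows. In that class other motifs lay apart, the composite site at 7.81% (4.79 to 12.5), against 12.2% of weak and 14% of tile windows, and GGGCGG at 6.77% (4 to 11.2), against 4.95% of weak and 3.66% of tile windows. At 20% to under 30% GC, with 37 member windows, the composite site was in 0 (0% to 9.41%), against 11% of weak and 14.1% of tile windows, so in the 2 classes below 40% GC its member interval lay below the tile share. At 50% to under 60% GC, with 120 member windows, GAGAGA was in 27.5% (20.3 to 36.1), against 22.7% of weak and 19% of tile windows.

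**Figure D5:**
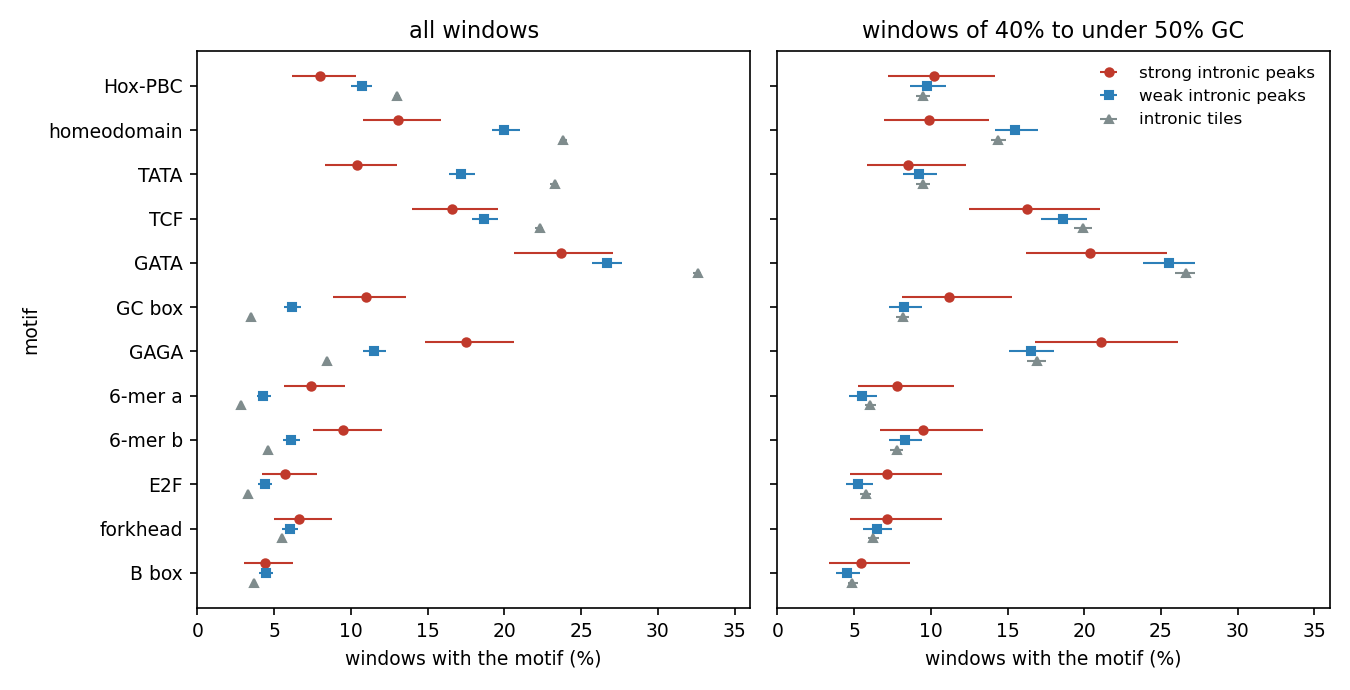
Share of windows around the summit with each motif (x axis, percent, Wilson 95% intervals) for strong intronic peaks, weak intronic peaks and intronic tiles, in all windows (left) and in windows of 40% to under 50% GC (right). For most motifs the intervals of strong intronic peaks and tiles lie apart on the left and overlap on the right. Those of strong and weak intronic peaks overlap on the left for Hox-PBC, TCF, GATA, E2F, forkhead and B box. The rows 6-mer a (CCGCAC) and 6-mer b (CGCACA) are plotted between the GAGA repeat and the E2F site; the E box is not plotted.

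GAGA repeats also varied among the members themselves. They were in 12 of the 32 windows at ranks 1 to 500 (37.5%), 24.7% in the next 500 ranks and 9.22% at ranks 2501 to 3000. Of the members strong in both replicates 26.2% had one, against 19.2% of those strong in replicate 1 only, 10.8% in replicate 2 only and 14.6% in neither. Windows with the repeat had a mean GC content of 47% ± 6.92 (SD over peaks), beside 42.6% ± 8.46 for the 547 without it. CGCACA was in 15% of the windows strong in both replicates and in 8.45% of the others, and CCGCAC in 6.54% and 7.55%.

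Members were spread over all 6 nuclear chromosomes. Chromosome III had 31.2 per Mb of eligible intronic sequence (140 members), chromosome I 29 (148) and chromosome II 27.5 (106), against 19.4 on V (93), 19.1 on X (89) and 18.1 on IV (87). Weak intronic peaks had a like order of shares, with 19.7% on III where 16.2% of the eligible sequence lies, and 14.2% on IV where 17.4% lies. The members strong in both replicates numbered 5.67 per Mb on I and 1.66 per Mb on IV. The middle 50% of each chromosome by length held 229 members (34.5%, interval 31 to 38.2), against 33.6% of weak intronic peaks and 40.1% of tiles. On X that share was 50.6%, and on V it was 26.9%, against 50.1% and 39.5% of the tiles.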

How the data were processed

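CEH-13 ChIP-seq peak lists of 2 replicates, of the pooled data and of the peaks that passed the authors' IDR step were used as deposited, on the ce11 build per the labels. Each list gives a signal score per peak, whose scale is not stated, and the −log10 of a q-value, both deposited by the authors. Which aligner, peak caller and IDR threshold produced them is not given in the sources used here. Control alignments were not used here. Per the file descriptions, both replicates' lists used the same control alignment. Peaks were ranked by signal and summits taken from the listed offset.

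Summits were placed on the Ensembl annotation of WBcel235. A summit in several genes was given to the shortest, and introns came from the transcript with the longest coding span. Copies were matches by megablast (BLAST 2.17.0) of at least 90% identity over 100 bases. Tables were made with Python 3.11.15, pandas 2.3.3, numpy 2.4.6 and scipy 1.17.1, and figures with matplotlib 3.10.9. The class rule was tested on random positions, and the merging into loci and the motif count on simulated data. Other steps had no such test. Genes named are the hosts of the 25 strongest loci, hosts with 4 or more loci, the 3 strongest hosts of each list, the peaks beside the threshold, and ceh-13. 1 of these hosts is not reported here. The tRNA-like members, the genes of noncoding RNAs and the GC classes were named or chosen after their values were seen. The members, the gene lists and the motifs were chosen with earlier results of these data known. In the gene lists, 7 names had no match in the annotation (run-1, mom-3, ptp-4, nca-1, erp-1, smc-1, syncrip-1). Alternatives changed the number of strong peaks, the distances, the exons used and the replicates. With 1 group there was no comparison between conditions, and no test was made.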

Additional observations from a re-analysis of the deposited data

How the results depend on the processing

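Most values moved little under the alternatives. Taking the 1500 strongest peaks left 241 intronic ones, of which 41.5% were strong in both replicates, against 16.1% of the 663. The share over all of the 1500 is not given here, so 41.5% has no background beside it. By rank, intronic peaks had 90.9% at ranks 1 to 250 and 81% at ranks 251 to 500, against 100% and 91.8% of promoter peaks. They had 50.5% at ranks 501 to 1000 and 21.4% at ranks 1001 to 1500, against 51% and 16.9% of promoter peaks. Counting overlap of the peak intervals in place of summit distance gave 21.6% strong in both, in place of 16.1% of the 663. A narrower window at inside transcript starts, 300 bp upstream to 100 bp downstream, held 6.18% of the members in place of 18.4%. Such a window covers less sequence, and the shares of weak intronic peaks and tiles in it are not given here. The median intron length was 1800 bp with a wider promoter window (2000 bp upstream to 1000 bp downstream) and 1978 bp without windows over 50% soft-masked, an alternative chosen after seeing the data, in place of 1384 bp. In windows of 50 bp to each side, CCGCAC was in 3.77% in place of 7.39%; a shorter window has fewer places for a match.

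Leaving out 1 replicate, with the list of the other used in place of the pooled one, gave 673 to 674 members, of which 14.5% to 15.3% were strong in both, where each peak matches its own list by construction. First introns held 21.4% to 21.6%, inside starts 18.7% to 20.2%, and CCGCAC was in 5.5% to 5.79% of windows. The median intron length was 1170 to 1376 bp. In all, 53 values under alternatives moved by less than their interval (or, for the number of members, by less than 1.5 times) and 9 moved by more, and the cause was not tested. No paired analysis was possible because there is 1 group and no result comes from a test. Depth is unknown, so no value here could be weighed by it.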
